A study of Mus musculus with 6 samples.

Results

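The enzymes and transporters of glycolysis, the pentose phosphate pathway and the tricarboxylic acid (TCA) cycle, 49 genes chosen by symbol, were followed in mouse macrophages treated with IL4 alone or with IL4 and 1 of 5 compounds. All 49 were in the deposited tables, and all 49 passed the filter of at least 1 CPM, the count scaled by the library total, in at least 1 library, out of 11898 genes that passed it. The macrophages were derived from C57BL/6 bone marrow over 5 days with M-CSF at 10 ng/ml, and treatment lasted 24 hours. The compound groups received IL4 with fatostatin, betulin, 25-HC, PF429424 or 1,10-Phen, and the comparison group received IL4 alone, so that IL4, the cytokine that drives alternative activation, was present in all of them. The labels give no dose, do not expand 25-HC or 1,10-Phen, and list no library without IL4. Each group is 1 RNA sequencing library, so no difference has a replicate check, no p-value is given, and each value compares libraries rather than conditions.

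Glycolysis splits glucose into pyruvate in the cytosol. Pyruvate is either reduced to lactate and exported, or turned into acetyl-CoA by the pyruvate dehydrogenase complex and oxidised in the mitochondrial TCA cycle. The pentose phosphate pathway branches off after the hexokinase step and supplies NADPH and ribose. Macrophages activated by inflammatory signals are known for high glycolysis, and those activated by IL4 for mitochondrial oxidation. Most glycolytic genes are known targets of hypoxia-inducible factor (HIF).

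The 6 libraries held between 20181396 and 21169667 estimated counts. The ratios given here are log2 ratios of a compound library to the IL4 library, after scaling with TMM factors and with a prior count of 2. Each comes with an exact Clopper-Pearson 95% interval, which reflects the counts alone. Genes are called where the ratio is at least 1 in size, that is 2-fold, with an interval that leaves out 0. All 5 comparisons share the IL4 library. The 7 macrophage markers measured, among them Csf1r, Adgre1 and Cd68, had counts in every library, and their summed level, here and below in CPM of library totals scaled by TMM, lay between 6999 and 11295 CPM in the compound libraries, against 10589 CPM with IL4 alone. With 1,10-Phen 8 of 12 neutrophil markers, 2 of 7 macrophage markers and 10 of 10 division genes were lower, against 11.8% of all genes compared. All 7 macrophage markers lay below 0 with 1,10-Phen, against 50.9% of all genes. Their median was -0.61 and their lowest ratio -2.82. The summed level of the division genes was 37.1 CPM with 1,10-Phen and between 539 and 1072 CPM with the other compounds, against 1335 CPM with IL4 alone. That of the neutrophil markers, of which none was at 0, was 920 CPM with 1,10-Phen and between 473 and 836 CPM with the other compounds, against 830 CPM with IL4 alone. Mmp8, a collagenase gene, held most of that sum in every library except the fatostatin one, with counts of 2055 with fatostatin, 9819 with betulin, 10018 with 25-HC, 7757 with PF429424 and 15529 with 1,10-Phen, against 11326 with IL4 alone, while the 8 lower markers had 1,10-Phen ratios between -4.57 and -2.49. Stromal markers summed to between 38.4 and 108 CPM, against 107 CPM, with 1 of 8 at 0 in the PF429424, 1,10-Phen and IL4 libraries. Lymphoid markers summed to at most 3.53 CPM, against 5.54 CPM, and erythroid markers to at most 0.803 CPM, against 0.605 CPM, each with members at 0 in some libraries. The part of these in the results was not tested, and in bulk RNA fewer cells of a type and less RNA per cell cannot be told apart.

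With 1,10-Phen, most glycolysis members were called higher than with IL4 alone, at steps from glucose entry to lactate export. No TCA member and no pyruvate dehydrogenase subunit among the members was called higher. Of the 49 members 20 were called higher, or 40.8%, against 7.59% of all genes compared, and 5 were called lower, or 10.2%, against 11.8% of all genes. By pathway, 18 of 23 glycolysis members were higher and 1 was lower, and 1 of 7 pentose phosphate members was higher. No TCA member was higher and 3 of 14 were lower. The 14 include Idh1 and Mdh1, which encode cytosolic enzymes. The median log2 ratio was 2.05 for glycolysis, -0.08 for the pentose phosphate pathway and -0.38 for the TCA cycle, against -0.02 over all genes compared. With library totals in place of TMM factors the members split into 19 higher and 6 lower, while all genes split into 641 higher and 1940 lower, against 903 and 1408 with TMM factors. That scaling moved the median of all genes with 1,10-Phen to -0.25, and the pathway medians to 1.80, -0.32 and -0.62. With log2(FPKM + 1) all genes split into 399 higher and 1201 lower.

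**Figure D1:**
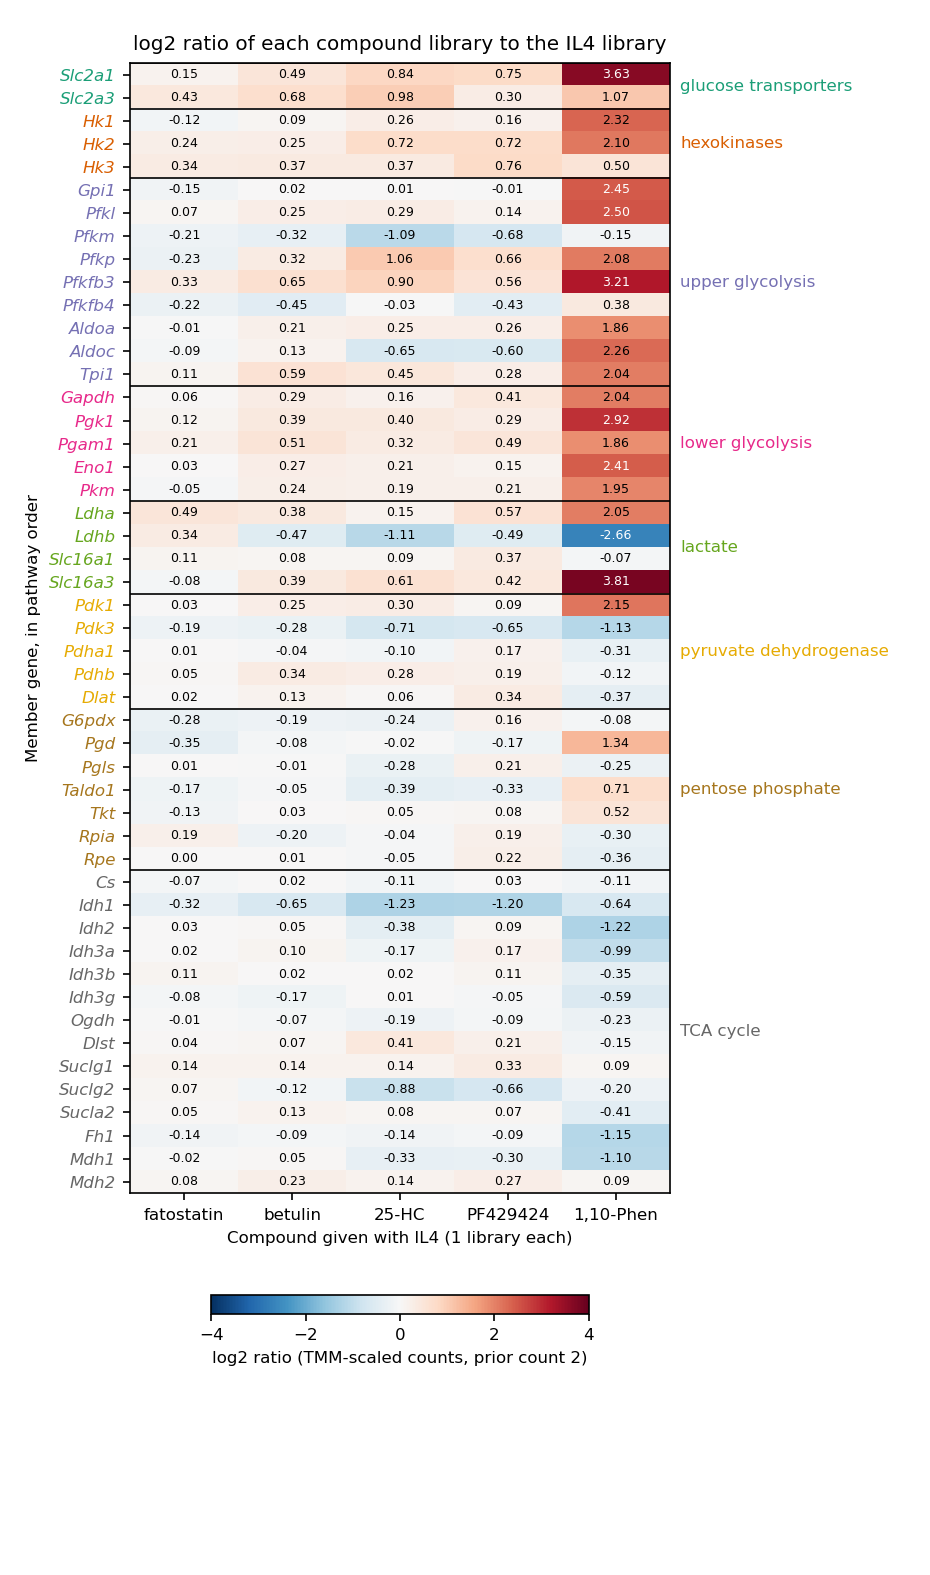
Colour scale of log2 ratios, compound over IL4 alone, for the 49 members, with the value in each cell; rows are genes in pathway order and columns are compounds, 1 library each. The 1,10-Phen column is red through most of glycolysis, up to 3.81 for Slc16a3, with Ldhb at -2.66 as the lowest cell. The other columns stay between -1.23 and 1.06.

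Most of these differences held against each of the other libraries. In 17 of 23 glycolysis members the 1,10-Phen library lay at least 2-fold above the highest of the other 5 libraries, against 3.56% of all genes compared, and in Ldhb it lay at least 2-fold below the lowest, against 5.35%. Slc2a3 was the called glycolysis gene that did not lie 2-fold above the rest. Across the other 5 libraries, the median gap between highest and lowest was 1.48-fold for the glycolysis members, against 1.4-fold for all genes. It was 1.31-fold for the pentose phosphate members and 1.23-fold for the TCA members. The widest gap of a member was 2.74-fold, for Ldhb. Summed over the 23 members, glycolysis took 4.42% of all counts of the 1,10-Phen library (Wilson 95% interval 4.41 to 4.43), against 1.18% with IL4 alone (1.18 to 1.19). The share was 1.2% with fatostatin, 1.38% with betulin, 1.37% with 25-HC and 1.36% with PF429424. The 14 TCA members took 0.124% of the counts with 1,10-Phen (0.122 to 0.125), against 0.188% with IL4 alone (0.186 to 0.19).

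**Figure D2:**
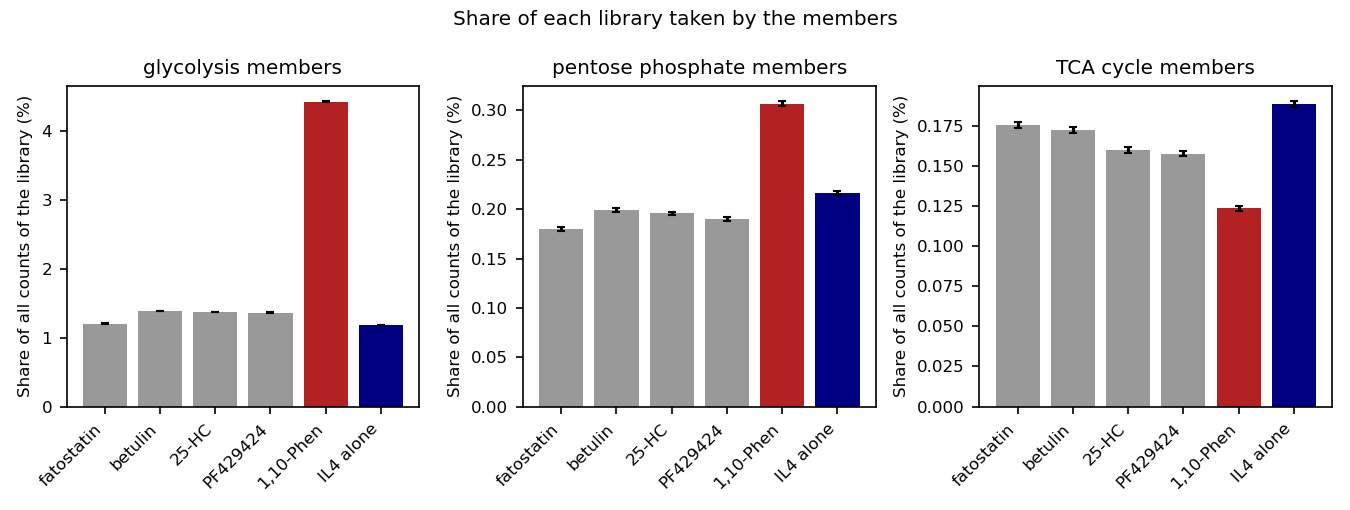
Share of all counts of a library, in percent, taken by the 23 glycolysis, 7 pentose phosphate and 14 TCA members; bars are libraries and error bars are Wilson 95% intervals, which cover counting error only. The 1,10-Phen bar is the highest for glycolysis (4.42%) and the pentose phosphate pathway (0.307%) and the lowest for the TCA cycle (0.124%).

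Glucose enters through Slc2a1 and Slc2a3, the facilitative transporters GLUT1 and GLUT3. Slc2a1 (chromosome 4, 119108745 to 119137330, GRCm38) had counts of 3668 with fatostatin, 4635 with betulin, 6121 with 25-HC, 5302 with PF429424 and 35957 with 1,10-Phen, against 3332 with IL4 alone. Every compound library lay above the IL4 library, and the 1,10-Phen library stood far from the rest, at a log2 ratio of 3.63 (interval 3.58 to 3.69), or 12.4-fold. For Slc2a3 the counts were 109 with fatostatin, 130 with betulin, 166 with 25-HC, 95 with PF429424 and 150 with 1,10-Phen, against 81 with IL4 alone. Here the 25-HC library lay slightly above the 1,10-Phen library in counts, and the 1,10-Phen ratio of 1.07, with a lower interval bound of 0.69, was 0.83 with library totals, 0.49 with log2(FPKM + 1) and 0.52 against the median of the 6 libraries, all below 2-fold. Measured per length, Slc2a1 was the main transporter in every library, at 672 FPKM with 1,10-Phen against 64 FPKM with IL4 alone. Slc2a3 had at most 1.95 FPKM in any library, and at such levels the 1 added in log2(FPKM + 1) shrinks the ratio.

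Hexokinases trap glucose in the cell as glucose phosphate. Hk1 had counts of 1854 with fatostatin, 2147 with betulin, 2486 with 25-HC, 2151 with PF429424 and 8831 with 1,10-Phen, against 2033 with IL4 alone. Hk2, an inducible form, had counts of 1936 with fatostatin, 1947 with betulin, 2794 with 25-HC, 2578 with PF429424 and 6154 with 1,10-Phen, against 1652 with IL4 alone. For both, the 1,10-Phen library lay at least 2-fold above the other 5, with log2 ratios of 2.32 (interval 2.25 to 2.39) and 2.10 (interval 2.02 to 2.18). Hk3, the form with the highest FPKM in all 6 libraries, behaved otherwise: its counts were 10365 with fatostatin, 10638 with betulin, 10896 with 25-HC, 13244 with PF429424 and 10177 with 1,10-Phen, against 8262 with IL4 alone. Its highest value was with PF429424, at 0.76 (interval 0.72 to 0.80), and the 1,10-Phen ratio of 0.50 was below 2-fold.

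In upper glycolysis 7 of 9 members were higher with 1,10-Phen (77.8%, against 7.59% of all genes). Gpi1, the glucose phosphate isomerase, had counts of 14149 with fatostatin, 16037 with betulin, 16358 with 25-HC, 14873 with PF429424 and 75352 with 1,10-Phen, against 15874 with IL4 alone, and the other 5 libraries lay within 1.13-fold of one another. Its 1,10-Phen ratio was 2.45 (interval 2.42 to 2.47). Phosphofructokinase, the committing step, is built of liver (Pfkl), muscle (Pfkm) and platelet (Pfkp) type subunits. Pfkl had counts of 1606 with fatostatin, 1823 with betulin, 1930 with 25-HC, 1608 with PF429424 and 7611 with 1,10-Phen, against 1543 with IL4 alone, and only 1,10-Phen stood apart, at 2.50 (interval 2.42 to 2.58). Pfkp had counts of 2934 with fatostatin, 4320 with betulin, 7419 with 25-HC, 5204 with PF429424 and 12777 with 1,10-Phen, against 3485 with IL4 alone. It was higher with 1,10-Phen, at 2.08 (interval 2.02 to 2.13), and also with 25-HC, at 1.06 (interval 1.00 to 1.12). The 25-HC ratio was below 2-fold with log2(FPKM + 1), at 0.94, and against the median of the 6 libraries, at 0.57. Pfkm, the lowest of the 3 per length, had counts of 185 with fatostatin, 171 with betulin, 103 with 25-HC, 127 with PF429424 and 169 with 1,10-Phen, against 216 with IL4 alone. All 5 compound libraries were below IL4 alone, and the ratio passed 2-fold with 25-HC, at -1.09 (interval -1.45 to -0.76), but not with 1,10-Phen, at -0.15. With log2(FPKM + 1), and likewise against the median of the 6 libraries, the 25-HC ratio was -0.82. Pfkm had 1.67 FPKM with 25-HC and 3.7 FPKM with IL4 alone, and at such levels the added 1 shrinks the ratio.

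The bifunctional enzymes Pfkfb3 and Pfkfb4 make and break the sugar phosphate that activates phosphofructokinase. Pfkfb3 (chromosome 2, 11471430 to 11554071) had counts of 1017 with fatostatin, 1270 with betulin, 1563 with 25-HC, 1140 with PF429424 and 6585 with 1,10-Phen, against 816 with IL4 alone, and each compound library was above IL4 alone. Its 1,10-Phen ratio, 3.21 (interval 3.11 to 3.32), corresponds to 9.26-fold. Pfkfb4 moved little, with counts of 1209 with fatostatin, 1034 with betulin, 1420 with 25-HC, 996 with PF429424 and 1603 with 1,10-Phen, against 1420 with IL4 alone, and its ratios lay between -0.45 and 0.38. Of the enzymes that follow, the aldolase gene Aldoa, which cleaves the sugar into trioses, had counts of 28215 with fatostatin, 33043 with betulin, 34918 with 25-HC, 32520 with PF429424 and 90905 with 1,10-Phen, against 28768 with IL4 alone. The triose phosphate isomerase gene Tpi1 had counts of 6698 with fatostatin, 9381 with betulin, 8775 with 25-HC, 7239 with PF429424 and 22491 with 1,10-Phen, against 6288 with IL4 alone. Both were far higher with 1,10-Phen than in any other library, at 1.86 (interval 1.84 to 1.88) and 2.04. Aldoc, the brain-type aldolase, had counts of 132 with fatostatin, 154 with betulin, 92 with 25-HC, 88 with PF429424 and 599 with 1,10-Phen, against 142 with IL4 alone. Its 25-HC and PF429424 ratios were -0.65 and -0.60, and it was higher with 1,10-Phen, at 2.26 (interval 2.01 to 2.55).

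All 5 members of lower glycolysis, the part that yields ATP, were higher with 1,10-Phen, against 7.59% of all genes. Their ratios lay between 1.86 and 2.92. Pgk1, phosphoglycerate kinase (chromosome X, 106187100 to 106203699), had counts of 11774 with fatostatin, 14232 with betulin, 14755 with 25-HC, 12614 with PF429424 and 71962 with 1,10-Phen, against 10915 with IL4 alone, a ratio of 2.92 (interval 2.89 to 2.95) with 1,10-Phen. Gapdh, the glyceraldehyde phosphate dehydrogenase often used as a reference gene, had counts of 52457 with fatostatin, 62006 with betulin, 58333 with 25-HC, 64300 with PF429424 and 181993 with 1,10-Phen, against 50990 with IL4 alone. Its ratio was 2.04 (interval 2.02 to 2.05), and it held rank 4 by FPKM among all genes of the 1,10-Phen library, against rank 17 with IL4 alone. Pgam1, phosphoglycerate mutase, had counts of 19046 with fatostatin, 23471 with betulin, 21282 with 25-HC, 22179 with PF429424 and 52698 with 1,10-Phen, against 16639 with IL4 alone. Eno1, enolase, had counts of 21986 with fatostatin, 25986 with betulin, 25791 with 25-HC, 22773 with PF429424 and 100086 with 1,10-Phen, against 21731 with IL4 alone. Pkm, pyruvate kinase, which closes the pathway, had counts of 39786 with fatostatin, 48777 with betulin, 48600 with 25-HC, 45587 with PF429424 and 139566 with 1,10-Phen, against 41621 with IL4 alone. In each the 1,10-Phen library was the highest of the 6 by at least 2-fold, with ratios of 1.86 (interval 1.84 to 1.89), 2.41 (interval 2.38 to 2.43) and 1.95 (interval 1.93 to 1.96) over IL4 alone. The other 4 compounds left these 5 genes between -0.05 and 0.51. Eno1b, a near copy of Eno1, held at most 5 counts in a library. Values of members with near copies elsewhere in the genome, such as Gapdh, Aldoa and Eno1, are uncertain where reads could be split between copies, and 18 of the 49 members had an estimated count that was not a whole number in at least 1 library.

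**Figure D3:**
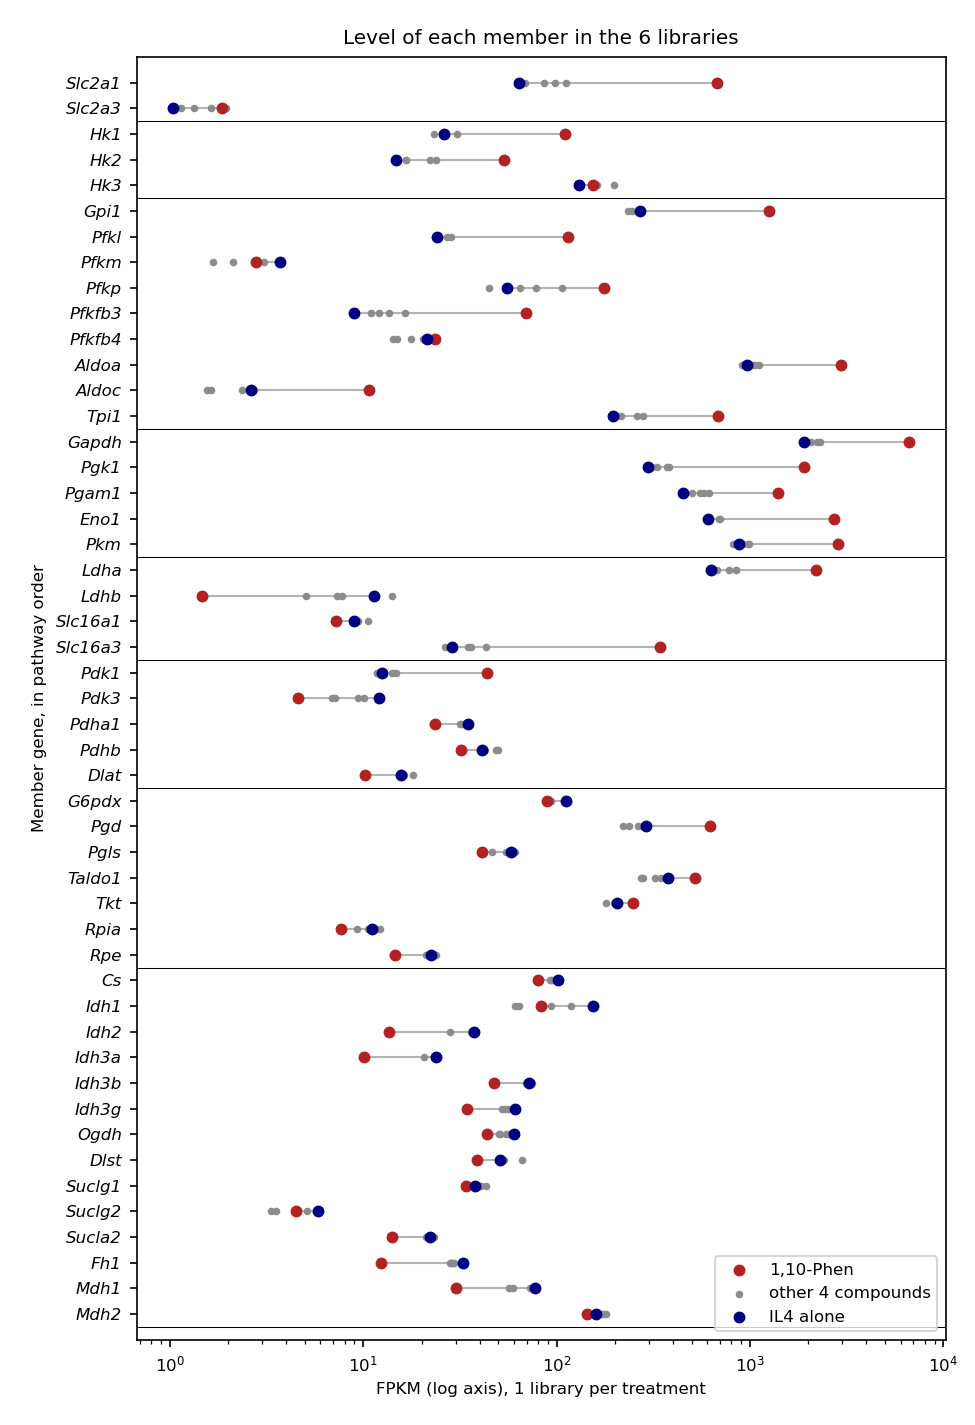
FPKM of each of the 49 members on a log axis, in pathway order down the page, for the 1,10-Phen library (red), the other 4 compound libraries (grey) and the IL4 library (dark blue). Red points lie to the right of the others through most of glycolysis, as for Slc2a1 (672 FPKM against 64 FPKM with IL4 alone), and to the left for Ldhb, Pdk3 and several TCA genes.

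The lactate step split by isoform. Ldha encodes the lactate dehydrogenase subunit that favours lactate formation, and Ldhb the subunit that favours pyruvate. Ldha had counts of 28418 with fatostatin, 26290 with betulin, 23089 with 25-HC, 28550 with PF429424 and 73171 with 1,10-Phen, against 20390 with IL4 alone, and the 1,10-Phen ratio was 2.05 (interval 2.02 to 2.07). Ldhb (chromosome 6, 142490249 to 142507957) went the other way, with counts of 369 with fatostatin, 210 with betulin, 138 with 25-HC, 198 with PF429424 and 39 with 1,10-Phen, against 294 with IL4 alone. It was the lowest of all 49 members with 1,10-Phen, at -2.66 (interval -3.23 to -2.23), and was also lower with 25-HC, at -1.11 (interval -1.43 to -0.83), though at -0.63 against the median of the 6 libraries. Of the monocarboxylate carriers among the members 1 was called. A further carrier gene outside the members, Slc16a7, was lower with 1,10-Phen, at -1.54 (interval -1.77 to -1.33). Slc16a3, the lactate exporter MCT4 (chromosome 11, 120948484 to 120959000), had counts of 1313 with fatostatin, 1819 with betulin, 2187 with 25-HC, 1767 with PF429424 and 17067 with 1,10-Phen, against 1400 with IL4 alone. At 3.81 (interval 3.73 to 3.89), or 14-fold, it had the highest 1,10-Phen ratio of the 49 members and rank 52 among all genes compared. Slc16a1, the carrier MCT1, had counts of 867 with fatostatin, 854 with betulin, 882 with 25-HC, 991 with PF429424 and 673 with 1,10-Phen, against 811 with IL4 alone, with 5 ratios between -0.07 and 0.37.

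At the entry to the mitochondria the kinases that switch off pyruvate dehydrogenase diverged, while the enzyme's own subunits did not pass 2-fold. The kinase gene Pdk1 had counts of 1019 with fatostatin, 1191 with betulin, 1273 with 25-HC, 1015 with PF429424 and 3899 with 1,10-Phen, against 1009 with IL4 alone, and only the 1,10-Phen library stood apart, at 2.15 (interval 2.05 to 2.25). Pdk3, another of these kinases, had counts of 419 with fatostatin, 394 with betulin, 302 with 25-HC, 290 with PF429424 and 191 with 1,10-Phen, against 483 with IL4 alone, with a 1,10-Phen ratio of -1.13 (interval -1.39 to -0.89). Against the median of the 6 libraries in place of IL4 alone, Pdk3 was at -0.66. The subunit genes Pdha1, Pdhb and Dlat had 1,10-Phen ratios of -0.31, -0.12 and -0.37, and ratios between -0.10 and 0.34 with the other compounds.

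Of the pentose phosphate enzymes, 1 of 7 was called with any compound, higher with 1,10-Phen (14.3%, against 7.59% of all genes). Pgd, which yields NADPH in the third step, had counts of 9394 with fatostatin, 11383 with betulin, 12215 with 25-HC, 10199 with PF429424 and 26635 with 1,10-Phen, against 12093 with IL4 alone, and its 1,10-Phen ratio was 1.34 (interval 1.31 to 1.37). G6pdx, which opens the pathway and also yields NADPH, did not follow it, with counts of 4851 with fatostatin, 5168 with betulin, 5124 with 25-HC, 6275 with PF429424 and 4873 with 1,10-Phen, against 5937 with IL4 alone and a 1,10-Phen ratio of -0.08. The lactonase gene Pgls, which acts between them, was at -0.25. In the branch that links back to glycolysis, the transaldolase gene Taldo1 and the transketolase gene Tkt were at 0.71 and 0.52 with 1,10-Phen, whereas Rpia and Rpe, the isomerase and epimerase of ribose formation, were at -0.30 and -0.36. With the other 4 compounds all 7 members lay between -0.39 and 0.22.

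In the TCA cycle 12 of 14 members lay below 0 with 1,10-Phen, against 50.9% of all genes compared. Of these, 3 passed 2-fold (21.4% of the 14, against 11.8% of all genes). They were Idh2, mitochondrial isocitrate dehydrogenase, Fh1, fumarase, and Mdh1, the cytosolic malate dehydrogenase. Idh2 had counts of 1286 with fatostatin, 1317 with betulin, 1006 with 25-HC, 1287 with PF429424 and 477 with 1,10-Phen, against 1277 with IL4 alone, a ratio of -1.22 (interval -1.37 to -1.07). Fh1 had counts of 962 with fatostatin, 1000 with betulin, 994 with 25-HC, 954 with PF429424 and 417 with 1,10-Phen, against 1070 with IL4 alone, a ratio of -1.15 (interval -1.32 to -0.99), and lay below all 5 other libraries by at least 2-fold. Mdh1 had counts of 2961 with fatostatin, 3109 with betulin, 2464 with 25-HC, 2333 with PF429424 and 1224 with 1,10-Phen, against 3029 with IL4 alone, a ratio of -1.10 (interval -1.20 to -1.01) that was -0.95 against the median of the 6 libraries. Idh3a, the catalytic subunit of the NAD-dependent isocitrate dehydrogenase, lay just short of the threshold at -0.99 (interval -1.14 to -0.84), and at -1.23 with library totals. Its partners Idh3b and Idh3g were at -0.35 and -0.59. Members near 0 with 1,10-Phen included Cs, citrate synthase, at -0.11, Suclg1, a succinyl-CoA ligase subunit, at 0.09, and Mdh2, the mitochondrial malate dehydrogenase, at 0.09. The remaining members, Ogdh and Dlst of the oxoglutarate dehydrogenase complex and the succinyl-CoA ligase subunits Suclg2 and Sucla2, lay between -0.41 and -0.15.

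Idh1, the cytosolic isocitrate dehydrogenase that yields NADPH, was the member that moved most with compounds other than 1,10-Phen. Its counts were 5591 with fatostatin, 4457 with betulin, 3062 with 25-HC, 2897 with PF429424 and 3923 with 1,10-Phen, against 7031 with IL4 alone. All 5 compound libraries were below IL4 alone, lowest with PF429424 and 25-HC. The ratio was -1.23 (interval -1.29 to -1.17) with 25-HC and -1.20 (interval -1.26 to -1.14) with PF429424, and -0.65 with betulin, -0.64 with 1,10-Phen and -0.32 with fatostatin. Against the median of the 6 libraries the 25-HC and PF429424 ratios were -0.59 and -0.55, below 2-fold. Suclg2 also lay below IL4 alone with these compounds, by less than 2-fold, at -0.88 (interval -1.13 to -0.65) with 25-HC and -0.66 (interval -0.90 to -0.43) with PF429424.

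The remaining 4 compounds left most members within 2-fold of IL4 alone. With 25-HC, 1 of 49 was called higher (2.04%, against 3.27% of all genes) and 3 were called lower (6.12%, against 5.69%): Pfkp, and Pfkm, Ldhb and Idh1. With PF429424, no member was called higher, against 2.49% of all genes, and 1, Idh1, was called lower (2.04%, against 5.63%). No member was called with betulin, against 1.91% of all genes higher and 2.29% lower, or with fatostatin, against 0.874% and 1.06%. These shares are close to or below those of all genes. For PF429424 the split of all genes was 296 higher and 670 lower, against 216 and 871 with library totals and 95 and 397 with log2(FPKM + 1). For fatostatin it was 104 and 126, against 150 and 70 with the median of the 6 libraries as the comparison and 23 and 47 with log2(FPKM + 1). For betulin it was 227 and 272, against 57 and 47, and 76 and 101, in the same order of settings. In the PF429424 library 8 of 10 division genes, 7 of 12 neutrophil markers and 1 of 7 macrophage markers were lower. In the 25-HC library 3 of 10 division genes and 2 of 7 macrophage markers were lower, while 2 of 12 neutrophil markers were higher and 1 lower, with a median of 0.43 for that list. The part of these in the values was not tested.

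A threshold of 1.5-fold, chosen after the values were seen, showed smaller differences. With 25-HC, 6 members were then higher (12.2%, against 9.02% of all genes), all of them in glycolysis: Slc2a1, Slc2a3, Hk2, Pfkp, Pfkfb3 and Slc16a3. As many were lower (12.2%, against 12.5%): Pfkm, Aldoc, Ldhb, Pdk3, Idh1 and Suclg2. With PF429424, 4 were higher (8.16%, against 7.39%), again all in glycolysis: Slc2a1, Hk2, Hk3 and Pfkp. In the same library 5 were lower (10.2%, against 11.3%): Pfkm, Aldoc, Pdk3, Idh1 and Suclg2. With betulin, Slc2a3, Pfkfb3 and Tpi1, also all in glycolysis, were higher (6.12%, against 4.98%) and Idh1 was lower (2.04%, against 6.33%). No member passed 1.5-fold with fatostatin, against 2.46% of all genes higher and 2.77% lower; its ratios ran from -0.35 for Pgd to 0.49 for Ldha. With 1,10-Phen, 21 were higher (42.9%, against 15.3%), with Taldo1 added, and 8 were lower (16.3%, against 20.3%), with Idh1, Idh3a and Idh3g added. The median ratio of the glycolysis members was 0.07 with fatostatin, 0.27 with betulin, 0.26 with 25-HC and 0.29 with PF429424, where all genes had medians of 0.01, 0.01, 0.01 and 0.02.

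**Figure D4:**
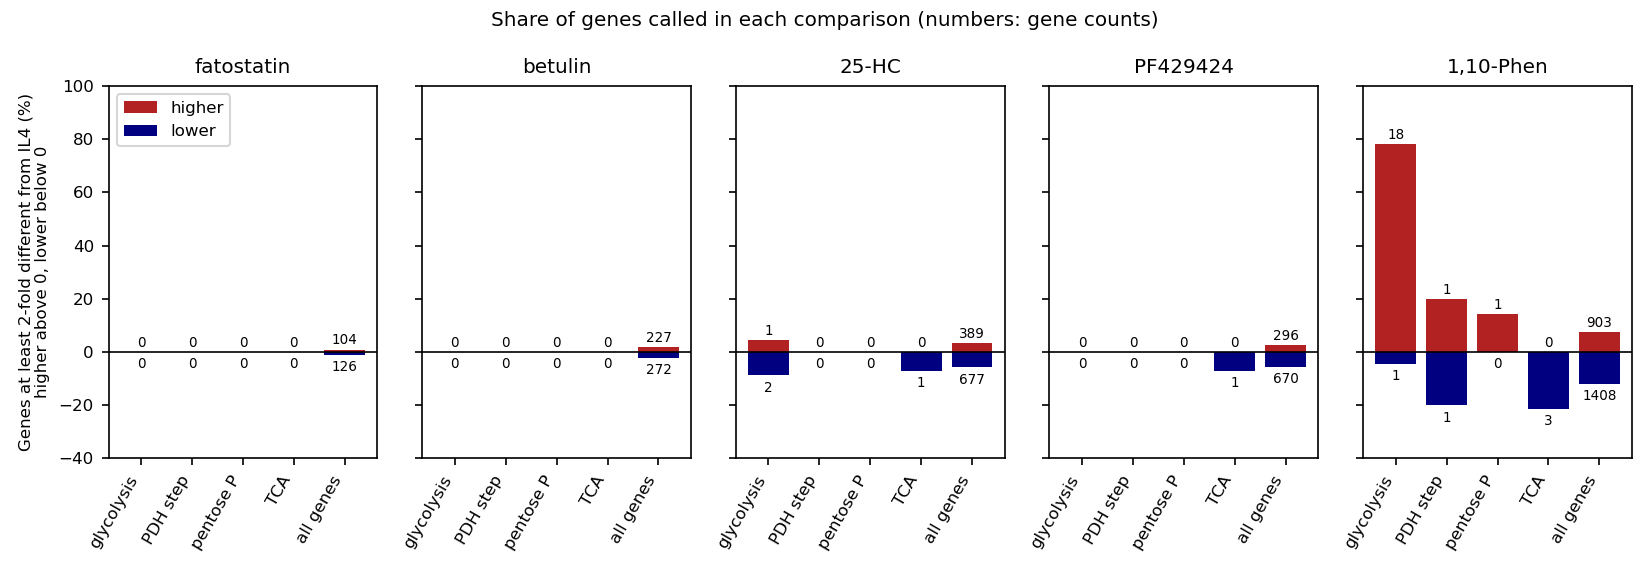
Share of genes called at least 2-fold higher (red, above 0) or lower (dark blue, below 0) than with IL4 alone, in percent of the genes in each group, for each compound; numbers at the bars are gene counts. With 1,10-Phen 18 of 23 glycolysis members are higher, next to 903 of 11898 genes overall.

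Levels of isoenzymes were compared within each library by their share of the summed FPKM of the family, which is a level per length. A family here holds only members, so other measured forms such as Pfkfb2, Pdk2 and Slc16a7 were left out of the sums. With IL4 alone these had counts of 701, 291 and 739. For the hexokinases, Hk3 held 48.6% with 1,10-Phen and between 74.9% and 80.4% with the other compounds, against 76.1% with IL4 alone, while Hk1 held 34.6% with 1,10-Phen against 15.3% with IL4 alone. The largest shift was in the Pfkfb pair: Pfkfb3 held 74.5% with 1,10-Phen and between 38.2% and 47.5% with the other compounds, against 29.5% with IL4 alone. That was the single family of 10 whose leading form differed by FPKM between the 1,10-Phen and the IL4 library. With counts per base of the longest GENCODE transcript there were 2, since Pdk3 then led its pair with IL4 alone, at 54%, and Pdk1 led with 1,10-Phen. By FPKM, Pdk1 held 90.4% of its pair with Pdk3 with 1,10-Phen and between 53.8% and 67.3% with the other compounds, against 51.1% with IL4 alone. Slc16a3 held 97.9% of its pair with Slc16a1 with 1,10-Phen, against 76.1% with IL4 alone.

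Other families kept their order. Slc2a1 held at least 98.1% of the Slc2a1 and Slc2a3 total, Aldoa at least 99.6% of the aldolase total and Ldha at least 98.2% of the lactate dehydrogenase total in each library. Ldhb held 0.0668% with 1,10-Phen and 0.743% with 25-HC, against 1.77% with IL4 alone. Among phosphofructokinase subunits Pfkp led throughout, from 59.6% with 1,10-Phen to 78% with 25-HC, against 66.6% with IL4 alone, and Pfkm held 0.952% with 1,10-Phen and 1.22% with 25-HC, against 4.45% with IL4 alone. Idh2 held 37.3% of the Idh1 and Idh2 total with PF429424 and 14% with 1,10-Phen, against 19.5% with IL4 alone. Mdh1 held 17.3% of the malate dehydrogenase total with 1,10-Phen and between 24.4% and 30.9% with the other compounds, against 32.4% with IL4 alone.

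**Figure D5:**
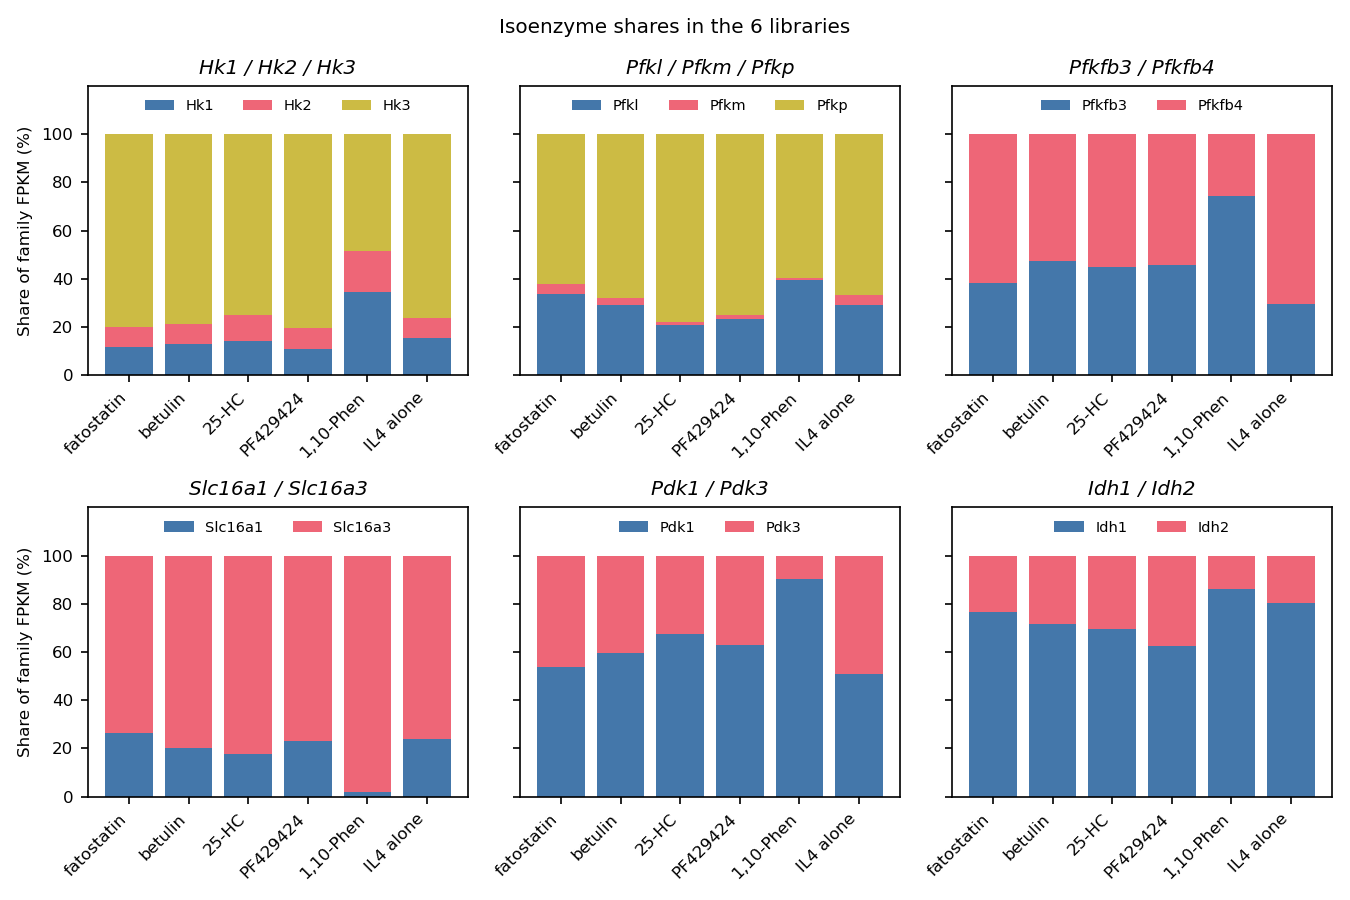
Share of the summed FPKM of 6 isoenzyme families, members only, held by each form, in percent, in the 5 compound libraries and, at the right of each panel, the IL4 library. Pfkfb3 goes past Pfkfb4 with 1,10-Phen (74.5%, against 29.5% with IL4 alone), as Hk3 holds 48.6% (against 76.1%) and Slc16a1 holds 2.07% (against 23.9%).

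Upstream sequences are shown for the 4 members with the highest 1,10-Phen ratios among those with a core, described next, upstream of the start. Their high ratios and their cores thus follow from the choice. The cores searched were ACGTG and GCGTG, found in hypoxia response elements, on both strands; ACGTG is also part of CACGTG, the E-box that binds other factors. The sequences are the bases within 250 upstream of a RefSeq start that lie in no GENCODE exon, on GRCm38.p6, 5′ to 3′ on the gene's strand, with the cores and their reverse complements in capitals. Slc16a3 lies at chr11:120948817-120949052 on the plus strand, Slc2a1 at chr4:119108495-119108710 on the plus strand, Pfkfb3 at chr2:11502102-11502340 on the minus strand, and Pgk1 at chrX:106186850-106187099 on the plus strand.
Slc16a3: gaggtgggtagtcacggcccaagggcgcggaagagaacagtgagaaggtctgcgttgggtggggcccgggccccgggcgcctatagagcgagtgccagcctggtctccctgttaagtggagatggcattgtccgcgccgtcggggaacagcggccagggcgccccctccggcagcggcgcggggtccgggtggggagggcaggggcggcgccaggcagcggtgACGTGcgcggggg
Slc2a1: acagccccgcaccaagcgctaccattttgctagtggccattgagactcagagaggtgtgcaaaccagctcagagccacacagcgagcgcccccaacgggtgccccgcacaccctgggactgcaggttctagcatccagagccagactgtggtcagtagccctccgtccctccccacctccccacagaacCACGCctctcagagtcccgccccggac
Pfkfb3: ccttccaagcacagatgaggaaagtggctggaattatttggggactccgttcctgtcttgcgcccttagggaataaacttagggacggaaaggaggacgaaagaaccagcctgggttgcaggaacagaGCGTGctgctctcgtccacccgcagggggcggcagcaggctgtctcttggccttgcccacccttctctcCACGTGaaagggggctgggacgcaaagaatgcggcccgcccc
Pgk1: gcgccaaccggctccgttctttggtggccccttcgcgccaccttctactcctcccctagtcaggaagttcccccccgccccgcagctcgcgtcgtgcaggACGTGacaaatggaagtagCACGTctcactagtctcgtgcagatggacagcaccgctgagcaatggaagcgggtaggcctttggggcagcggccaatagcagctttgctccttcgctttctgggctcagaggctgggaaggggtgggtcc

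The Slc16a3 stretch holds ACGTG at 27 bases before the start, counted to the first base of the core, and a second lies at 14 bases in a GENCODE exon. The Slc2a1 stretch holds GCGTG on the opposite strand at 61 bases, and an ACGTG at 36 bases overlaps an exon. The Pfkfb3 stretch, the one with more cores of the RefSeq promoters of this gene, holds GCGTG at 122 bases and CACGTG, read as ACGTG on both strands, at 53 and 52 bases. Pgk1 has ACGTG on both strands, at 150 and 131 bases. A core in these windows was common. RefSeq promoters were found for 47 of the 49 members, and 38 of them (80.9%) held a core within the 250 upstream bases of at least 1 promoter, against 61.3% of the 9574 compared genes with a promoter. Of the members higher with 1,10-Phen 17 of 19 (89.5%) held one, against 21 of the 28 other members (75%). For ACGTG alone these shares were 47.4% and 28.6%, against 25.4% of all. For GCGTG alone the order was reversed, with 63.2% of the higher members and 67.9% of the other members, against 49.9% of all. Counted per promoter, the share with either core was 76.7% for the higher members and 75.7% for the other members, against 55.3% of all promoters. A match is a description of the letters, and no factor binding was measured.

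Further genes of the same pathways, 70 of which were compared, divided evenly with 1,10-Phen: 9 were higher (12.9%, against 7.59% of all genes) and 9 lower (12.9%, against 11.8%). Pgm2, a phosphoglucomutase that links glycogen to glycolysis, had counts of 826 with fatostatin, 833 with betulin, 712 with 25-HC, 823 with PF429424 and 7213 with 1,10-Phen, against 807 with IL4 alone, a 1,10-Phen ratio of 3.36 (interval 3.26 to 3.47). Bsg, the chaperone of the monocarboxylate carriers, had counts of 5404 with fatostatin, 5359 with betulin, 4915 with 25-HC, 5525 with PF429424 and 13125 with 1,10-Phen, against 5389 with IL4 alone, and its ratio was 1.49 (interval 1.44 to 1.53). Me1, cytosolic malic enzyme, which yields NADPH, had counts of 78 with fatostatin, 118 with betulin, 97 with 25-HC, 93 with PF429424 and 761 with 1,10-Phen, against 127 with IL4 alone, at 2.76 (interval 2.51 to 3.07). For these 3 genes the 1,10-Phen library was the highest of the 6. Also higher were the glucose phosphate carrier gene Slc37a4 at 1.32, Pck2, mitochondrial phosphoenolpyruvate carboxykinase, at 1.14, the malic enzyme gene Me3 at 1.08 and Pcx, pyruvate carboxylase, at 1.04. Lower with 1,10-Phen were Slc2a6, of the same family as Slc2a1, at -2.84, and Slc16a7, of the same family as Slc16a3, at -1.54. The glycerol phosphate dehydrogenase gene Gpd1 was lower at -1.69 and the ribokinase gene Rbks at -1.42. Prps1 and Prps2, which make the ribose donor for nucleotides, were lower at -2.10 and -1.32.

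With the other compounds the called shares of these 70 genes were 0 to 4.29%. Called higher were 2 with fatostatin (2.86%, against 0.874% of all genes) and 2 with betulin (2.86%, against 1.91%). With 25-HC 2 were higher (2.86%, against 3.27%) and with PF429424 3 (4.29%, against 2.49%). Called lower were 0 with fatostatin, against 1.06%. Betulin, 25-HC and PF429424 each had 2 lower (2.86%), against 2.29%, 5.69% and 5.63%. Eno2, the neuronal enolase, had counts of 188 with fatostatin, 179 with betulin, 217 with 25-HC, 212 with PF429424 and 76 with 1,10-Phen, against 84 with IL4 alone. It was called higher with fatostatin, betulin, 25-HC and PF429424, at 1.16, 1.08, 1.32 and 1.39, but was at 0.06 with 1,10-Phen, where Eno1 was at 2.41. The 4 compound libraries share the single IL4 library with 84 counts. Pck2 was higher with 25-HC and PF429424 as well, at 1.10 and 1.22. Me3 was higher with PF429424, at 1.28. Pdk2, another pyruvate dehydrogenase kinase gene, was lower with betulin, at -1.02, and with PF429424, at -1.12, and Pcx was lower with 25-HC, at -1.26.

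Related gene groups were set beside the members: the HIF sentinel genes, none of them a member, and the nuclear-encoded subunits of oxidative phosphorylation, a list chosen after the values were seen. The members and the HIF list were chosen with earlier results of these data known. With 1,10-Phen 10 of 13 HIF sentinel genes were higher and 1 was lower, against 7.59% and 11.8% of all genes, with a median of 3.11; the hydroxylase gene Egln3 reached 8.94 (interval 8.49 to 9.68) and the growth factor gene Vegfa 2.89 (interval 2.79 to 2.99). The lower gene was Hif1a itself, at -1.11 (interval -1.21 to -1.01). Among the other compounds 1 of the 13 was called higher each with PF429424 (Egln3, at 2.69), with 25-HC (Vegfa, at 1.83) and with fatostatin (Vegfa, at 1.15), and none with betulin, against 2.49%, 3.27%, 0.874% and 1.91% of all genes. With 25-HC the 13 genes had a median of 0.22, next to 0.26 for the glycolysis members. Of 73 oxidative phosphorylation genes none was higher with 1,10-Phen, against 7.59% of all genes, and 1, Ndufs8, was lower at -1.01, against 11.8%, and their median of -0.30 lay near the -0.38 of the TCA members. With 25-HC the medians were -0.17 for oxidative phosphorylation and -0.12 for the TCA members. In the same order they were 0.15 and 0.04 with betulin, 0.14 and 0.05 with PF429424, and 0.01 and 0.02 with fatostatin. These are medians of groups within the same pair of libraries, and no difference between the groups was tested.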

How the data were processed

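Each of the 6 libraries was made from 1 ug of macrophage RNA, with 1 library per treatment. The deposited tables hold estimated counts (expected counts) per gene, unscaled, and FPKM values, which correct for transcript length and depth, per the file headers. Bowtie2, HISAT2, DESeq2 and RSEM 1.2.12 were used, per the submitters' processing notes, which give no roles. No source used here states whether counting used strand. Chromosome accessions in the tables are those of GRCm38. Positions came from RefSeq on GRCm38.p6, which held all 49 member IDs.

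Counts were rounded to whole numbers and scaled by TMM (edgeR 4.0.16 in R 4.3.3), while the 1 CPM filter used library totals. A floor of 3 counts equals 0.142 to 0.149 CPM. Reads are not independent molecules, so intervals and floors cover counting error only. With 1 library per treatment no test was possible, so counts and medians stand beside those of all genes. The code was tested on simulated counts. Members and lists were chosen with earlier results of these data known. Counts per library are given for members called in a comparison and for at least 1 member of each step, further pathway genes are named where called with at least 5 CPM, except 1 that is not reported here, and promoters are those of the 4 highest members with a core. The alternatives were size factors from DESeq2 1.42.0, library totals, no filter, a minimum of 5 CPM, prior counts of 0.5 and 10, log2(FPKM + 1), and the median of the 6 libraries as reference. Python 3.11.15 with SciPy 1.17.1 did the rest.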

Additional observations from a re-analysis of the deposited data

How the results depend on the processing

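Of the alternative values, 173 stayed within the counting interval or, for numbers of genes, within 1.5 times, and 39 did not. The interval differs between pathways, so an equal shift can count as moved in 1 and not in another. With betulin, library totals took the pentose phosphate median from -0.05 to -0.12, outside it. They took the TCA median from 0.04 to -0.03, inside it. DESeq2 size factors and prior counts of 0.5 and 10 moved none. No filter and a CPM of at least 5 could not move any, since every member exceeded 5 CPM in some library. With library totals the glycolysis medians were 0.20 with betulin, 0.15 with PF429424 and 1.80 with 1,10-Phen, the pentose phosphate medians -0.19 with fatostatin, -0.12 with betulin, 0.02 with PF429424 and -0.32 with 1,10-Phen, and the TCA medians -0.09 with PF429424 and -0.62 with 1,10-Phen. With log2(FPKM + 1), which is scaled to library totals too, the glycolysis medians were 0.20 with betulin, 0.14 with PF429424 and 1.79 with 1,10-Phen, the pentose phosphate medians -0.19 with fatostatin, -0.12 with betulin, 0.02 with PF429424 and -0.32 with 1,10-Phen, the TCA medians -0.09 with PF429424 and -0.60 with 1,10-Phen, and 0 members were higher with 25-HC. Against the median of the 6 libraries the glycolysis medians were -0.17 with fatostatin, 0.01 with betulin, 0.03 with 25-HC, 0.01 with PF429424 and 1.67 with 1,10-Phen, and the pentose phosphate medians -0.06 with fatostatin, 0.21 with PF429424 and 0.05 with 1,10-Phen. Each library is part of that median, and betulin, 25-HC and PF429424 are its middle libraries for glycolysis, so their values near 0 follow from the construction. There 0 members were higher and 0 lower with 25-HC, 0 were lower with PF429424 and 3 were lower with 1,10-Phen. At 1.5-fold, added later, the members higher and lower were 3 and 1 with betulin, 6 and 6 with 25-HC, 4 and 5 with PF429424, and 8 were lower with 1,10-Phen. The cause was not tested except that a lower threshold calls more genes. With counts per base of the longest GENCODE transcript in place of FPKM, also added later, the leading form differed in 2 families, the pair of Pdk1 and Pdk3 besides Pfkfb3 and Pfkfb4. The alternative with transcript lengths from the RefSeq table was not run, since that table gives the length of the gene. No paired analysis was possible because each treatment had 1 library, and for the same reason no library could be left out of a group.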
